A study of Dunaliella salina with 9 samples.

Results

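Blue light was set against white light in Dunaliella salina, a unicellular green alga of salt waters. Of the 9 RNA-seq libraries of the series, 6 entered this contrast by their light labels alone: 3 from cells under blue light of 450 nm and 3 from cells under cool white light. The 3 red light libraries were left out. Cells of both groups came from cultures at 22 °C under cold white lamps with 14 h of light and 10 h of dark a day. In mid-exponential growth they were pelleted and put into fresh medium for the new light, whose photon flux was 50 µmol per square metre and second in either group. The strain, the time spent under the new light and the hour of harvest are not given in the sources used here. It is also not stated there whether each sample was a culture of its own, so that p-values measure the spread between these samples, which may in part be technical.

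Chlorophylls of green algae absorb in the blue and in the red, whereas carotenoids absorb mainly blue and blue-green light. Blue light is also sensed by flavin-binding photoreceptors such as phototropins and cryptochromes, which in green algae act on photoprotection, pigment synthesis and the life cycle. D. salina is known for storing β-carotene in plastid globules under strong light, high salt or lack of nutrients. The deposited tables count reads on numbered transcript clusters without gene names, and none of the identifiers matched a gene of the reference table. Enzymes, receptors and marker genes of the alga could therefore not be picked out, and the clusters are described here by their level, their length and their change.

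The libraries held 16279006 to 19920909 counts on 115975 clusters, of which 32789 had enough counts to be tested. Counts were spread over more clusters in blue than in white. The number of clusters needed to reach 50% of a library's counts was 438, 258 and 299 in white 1 to 3 and 610, 594 and 550 in blue 1 to 3. The groups did not overlap, with a mean of 332 ± 94 in white and 585 ± 31 in blue (SD, n = 3; two-sided exact permutation p = 0.1, the smallest that 3 against 3 libraries allow, or 0.13 adjusted over 8 such tests). Clusters with at least 1 count numbered 51776 to 65165 per white library and 71458 to 77120 per blue library (exact permutation p = 0.1, adjusted 0.13).

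**Figure D1:**
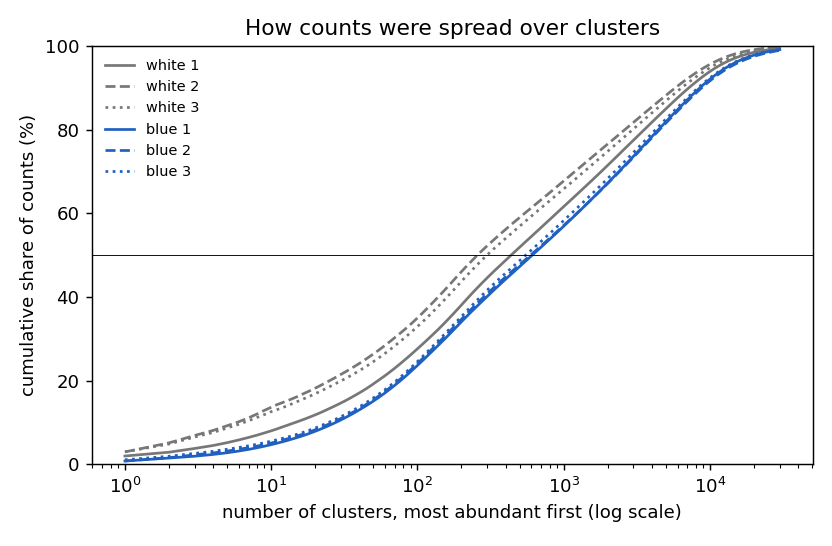
Cumulative share of a library's counts (percent) against the number of clusters, counted from the most abundant (log scale), for 3 white libraries (grey) and 3 blue libraries (blue). The white curves lie above the blue ones at their start and reach 50% at 258 to 438 clusters, against 550 to 610 in blue.

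With 6 libraries in the fit, 3610 clusters were higher and 4087 lower in blue than in white, or 23.5% of those tested (11.0% and 12.5%; quasi-likelihood test of edgeR, threshold 0.05 on the p-value after Benjamini-Hochberg adjustment). At least 2-fold changes were seen in 3286 of the clusters that rose (10.0% of those tested) and 3143 of those that fell (9.59%). More clusters, 53.6% of those tested, had no overlap between the blue and the white libraries, 30.2% with blue higher and 23.4% with blue lower. Of the 7697 clusters that passed the test, 2 had an overlap. The clusters that rose had a summed share of 5.59% ± 0.78 under white light and 17.6% ± 0.55 under blue light (SD, n = 3). Those that fell had 46.4% ± 4.9 under white and 19.0% ± 1.2 under blue light. Both shares describe clusters picked for their difference. The number of clusters past the threshold changed with the library left out, except for white 2. A fit with 1 library left out has fewer degrees of freedom and its own set of tested clusters (35517 to 37139). Leaving out white 1 gave 14447, white 2 gave 7705 and white 3 gave 3200. Leaving out blue 1 gave 1910, blue 2 gave 1836 and blue 3 gave 2670. Scaling by library totals in place of TMM kept the sum near (7489) but turned the balance to 4882 higher and 2607 lower, as it moved the median log2 difference of all tested clusters from 0.18 to 0.55.

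**Figure D2:**
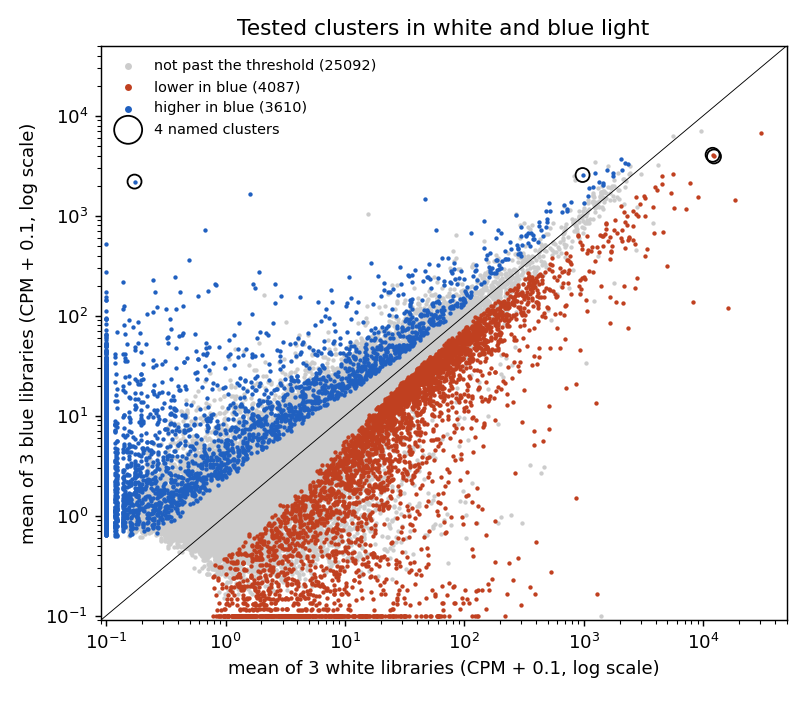
Mean level of each tested cluster in white (x axis) and in blue (y axis), both in CPM plus 0.1 on log scales, with the line of equal levels. Clusters higher in blue (3610) lie above the line and reach the left edge, where white had no counts; clusters lower in blue (4087) lie below it and are densest from 10 to 1000 CPM in white, and circles mark the 4 named clusters.

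Over all tested clusters, increases and decreases had different shapes. The median log2 difference was 4.73 among the clusters that rose and -1.78 among those that fell. Of the clusters that rose, 1343 (37.2%) had no counts in any white library, and with these at their lower bound the median increase was 3.94. Of the clusters that fell, 358 (8.76%) had no counts in blue, and the median with bounds stayed at -1.78. A bound sets the pooled counts of the group with reads against 3 counts over the group without. Enough counts in 3 of the 6 libraries sufficed for the filter. Clusters without counts in a group could thus be tested only through the other group, where they were high. Their numbers and the medians over all risen or fallen clusters are therefore not independent of the filter, and the contrast in shape is a description. Changes of at least 8-fold were found in 2230 clusters that rose (6.80% of those tested) and 1252 that fell (3.82%), whereas changes under 2-fold made up 8.98% of the increases and 23.1% of the decreases. Clusters that rose had a median level of 2.58 CPM over the 6 libraries, against 16.9 CPM for those that fell. This mean includes the group without counts where there is one. A mean of at least 10 CPM was reached by 998 of the 3610 that rose and 2477 of the 4087 that fell. Among all 32789 tested clusters 10661 reached it.

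On the TMM scale the direction of change differed between classes of level. Under a mean of 1 CPM, 1033 of 6918 clusters rose and 254 fell. The filter asks for enough counts in only 3 of the 6 libraries. Clusters near its limit can thus have entered through the light in which they were high, so the balance of this class is not independent of the filter. From 1 to 10 CPM, 1579 of 15210 rose and 1356 fell. From 10 to 100 CPM the balance was the other way, with 827 of 9267 that rose and 1984 that fell. From 100 to 1000 CPM, 153 of 1225 rose and 427 fell, and at 1000 CPM or more 18 of 169 rose and 66 fell. Decreases thus passed the test in 3.67% of the rarest class and in 39.1% of the most abundant, while increases stayed between 8.92% and 14.9% of each class. The median log2 difference was -0.13 from 10 to 100 CPM and lowest, at -0.31, from 100 to 1000 CPM. It was 0.81 in the rarest class and -0.19 in the most abundant. Without white 1 these medians were 1.24 and -0.35, and without white 2 that of the most abundant class was -0.082. In the class from 1 to 10 CPM the median was 0.26, and 0.40 without white 1. With library totals as the scaling more clusters rose than fell from 10 to 100 CPM (1445 against 1103). The medians were then 1.16 under 1 CPM, 0.62 from 1 to 10 CPM and 0.25 from 10 to 100 CPM. With that scaling 243 rose and 290 fell from 100 to 1000 CPM, and 53 rose and 61 fell at 1000 CPM or more, with medians of 0.073 and 0.21.

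A set of clusters kept its change whichever library was left out. It holds the clusters with at least a 2-fold change, no overlap between the groups and an adjusted p under 0.05 both with all 6 libraries and without each of them in turn. In it, 714 clusters rose (2.18% of those tested) and 818 fell (2.49%). Of the 714, 591 rose at least 8-fold, 370 had no counts in white and 70 rose less than 4-fold. Of the 818, 428 fell at least 8-fold, 145 had no counts in blue and 240 fell less than 4-fold. The fallen clusters were the more abundant ones: 243 of them had a mean of at least 100 CPM in white, whereas 87 of the risen had that level in blue. The 714 made up 0.634% ± 0.085 of white counts and 4.90% ± 0.15 of blue counts, and the 818 made up 17.7% ± 0.99 and 5.53% ± 0.24 (SD, n = 3), again as shares of clusters picked for their change.

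In this set the 2 risen clusters with the highest level in blue were Cluster-15686.46358 and Cluster-15686.49082. Cluster-15686.46358 (effective length 4208 bases) was at 1076, 878 and 982 CPM in white 1 to 3 and at 2592, 2392 and 2690 CPM in blue 1 to 3. All blue libraries lay above all white ones, and the cluster moved from rank 197 in white to rank 22 in blue. It rose 2.61-fold (95% interval 2.12 to 3.23; log2 difference 1.39, SE 0.12, edgeR adjusted p = 0.0023). Cluster-15686.49082 (2239 bases) was at 0, 0 and 0.22 CPM in white and at 2185, 2045 and 2366 CPM in blue. Its 3 white counts, all from white 3, stand against 139556 counts in blue. The ratio of the pooled levels was 34603 with an exact 95% interval of 11840 to 167795, which covers counting error only (edgeR adjusted p = 0.00097). It was a cluster close to absent in white that took rank 31 in blue.

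The 2 fallen clusters with the highest level in white were Cluster-15686.47805 and Cluster-15686.47928, and they had nearly the same profile. Cluster-15686.47805 (746 bases) was at 9353, 14769 and 12912 CPM in white 1 to 3 and at 3395, 3866 and 4502 CPM in blue 1 to 3. It fell 3.15-fold (95% interval 2.19 to 4.53; log2 difference -1.65, SE 0.21, edgeR adjusted p = 0.0063). Cluster-15686.47928 (1382 bases) was at 9414, 14080 and 12566 CPM in white and at 3828, 3858 and 4535 CPM in blue. It fell 2.95-fold (95% interval 2.16 to 4.04; log2 difference -1.56, SE 0.18, edgeR adjusted p = 0.0048). Neither cluster had an overlap between the groups, and white 1 was the lowest white library in both. In spite of the fall they held ranks 5 and 4 in blue, after ranks 4 and 5 in white.

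**Figure D3:**
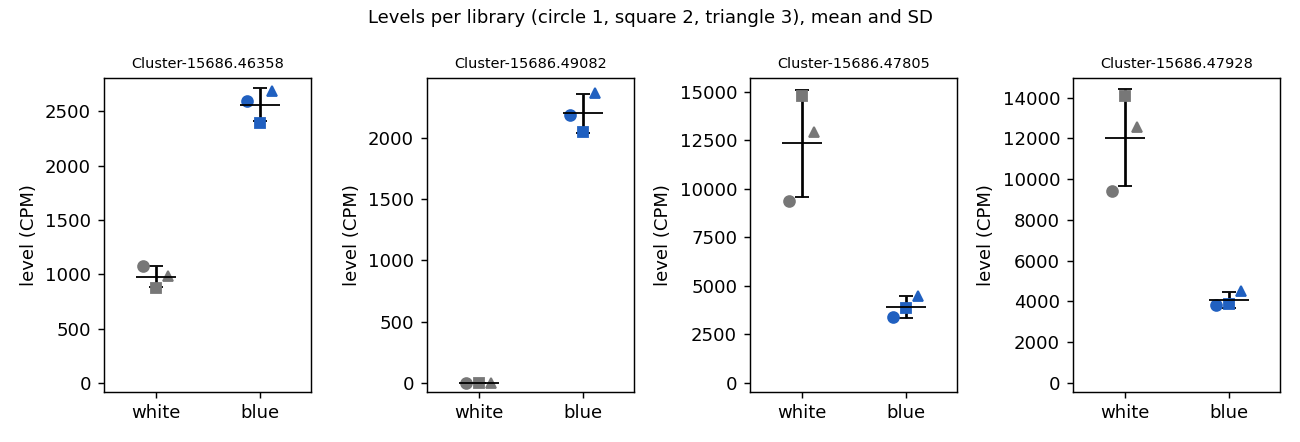
Levels of the 4 named clusters in CPM in each library (circle, square and triangle for libraries 1, 2 and 3), with the mean and SD of 3 libraries per light. In Cluster-15686.46358 and Cluster-15686.49082 all blue libraries lie above the white ones, and in Cluster-15686.47805 and Cluster-15686.47928 all lie below.

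The 4 named clusters were also set against the red libraries, in a fit of all 9 libraries in which 1.69% of clusters differed between blue and red. The blue libraries in that test are those by which the clusters were chosen. Cluster-15686.46358 was at 1128 ± 35 CPM in red and 2582 ± 162 CPM in blue on the scale of that fit (SD, n = 3; log2 difference blue minus red 1.19, SE 0.099, edgeR adjusted p = 0.0023). Cluster-15686.49082 was present in red too, at 737 ± 28 CPM against 2219 ± 169 CPM in blue, a log2 difference of 1.59 (SE 0.34) with an edgeR adjusted p of 0.077. With the blue and red libraries alone in the fit, its edgeR adjusted p was 0.00049. The 1.69% above belongs to the fit of all 9 libraries and not to this one. No such share is given here for the fit of blue and red alone, so how usual a pass was in it cannot be said. The spread in the fit of all 9 libraries was estimated with the white libraries too, which were more variable than the blue ones. Cluster-15686.47805 was at 9758 ± 411 CPM in red and 3958 ± 563 CPM in blue (log2 difference -1.30, SE 0.18, edgeR adjusted p = 0.015). Cluster-15686.47928 was at 8900 ± 414 CPM in red and 4112 ± 412 CPM in blue (log2 difference -1.11, SE 0.15, edgeR adjusted p = 0.014). In each of the 4 clusters the red libraries did not overlap the blue ones. The share of all clusters without such an overlap is not given here for blue and red, and for blue and white it was 53.6%.

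The risen clusters of the set with the highest level in blue differed widely in the size of their rise. Among the 10 with the highest level in blue, 6 rose less than 4-fold and 4 at least 8-fold. Of the latter, the third of the list was at 2.4, 0.5 and 1.6 CPM in white and at 1674, 1571 and 1733 CPM in blue, and the ninth was at 0.9, 0 and 0.8 CPM in white and at 698, 701 and 744 CPM in blue. Both were close to absent in every white library and well expressed in every blue one. The eighth was not: it rose 12.3-fold, from 87.1, 27.1 and 59.7 CPM in white to 816, 662.4 and 668.5 CPM in blue. The fourth, at 466, 537 and 539 CPM in white and 1378, 1295 and 1313 CPM in blue, is 1 of the 6 that rose less than 4-fold. Among the 10 fallen clusters with the highest level in white, 7 fell less than 4-fold and 1 at least 8-fold. That 1 has an effective length of 47.0 bases and went from 4018, 11443 and 9452 CPM in white to 55.4, 146 and 210 CPM in blue. The seventh was at 4360, 4822 and 4544 CPM in white and at 718, 716 and 627 CPM in blue.

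Lists of the most abundant clusters are chosen by the level in one light, which favours falls from a white list and rises in a blue one, so their counts are given as a description. Of the 10 most abundant clusters in white, 9 passed the test and all 9 were lower in blue, by 2.95-fold to 136-fold, and 4 of them passed without each library in turn. Over all tested clusters 12.5% were lower, and in the class of 1000 CPM or more 39.1% were. These 10 clusters made up 11.2% ± 3.3 of white counts and 3.19% ± 0.64 of blue counts (SD, n = 3). The most abundant one (effective length 7706 bases) was at 20525, 36641 and 35248 CPM in white 1 to 3 and at 3694, 6769 and 9859 CPM in blue 1 to 3. The groups stood apart, and the log2 difference was -2.19 (SE 0.43, edgeR adjusted p = 0.018). It did not pass in the fits that left out white 3 (edgeR adjusted p = 0.067), blue 1 (0.054) or blue 2 (0.085), and passed in the other 3 (0.015 to 0.043). The 10 most abundant clusters in blue changed less: 3 were lower than in white, 3 were higher and 4 did not pass. They made up 7.08% ± 0.80 of white counts and 5.09% ± 0.43 of blue counts. The lists of the 100 most abundant clusters shared 50 clusters. Of the 100 of white, 62 fell and 6 rose, and of the 100 of blue, 22 rose and 16 fell, beside 11.0% higher and 12.5% lower over all tested clusters.

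Some clusters had reads under a single light of the pair. With at least 10 counts in each blue library and none in any white library there were 1390 clusters, against 364 for the reverse. Levels are given for those that passed the filter, 1343 of the 1390 and 358 of the 364. The 1343 without white counts had a median of 2.47 CPM in blue and reached 525 CPM, and 230 of them had at least 10 CPM. All 1390 took 1.19%, 1.12% and 1.17% of the counts in blue 1 to 3. The 358 without blue counts had a median of 4.01 CPM in white and reached 1390 CPM, and 89 had at least 10 CPM. All 364 took 0.705%, 0.347% and 0.330% of the counts in white 1 to 3, so that white 1 was apart from the other white libraries. Leaving out any library loosens the condition, so that the numbers can only rise. Without white 1 they were 2164 and 581. Without each of the other libraries in turn they were 1594 to 1749 and 453 to 528. A count of 0 in a library allows a level of up to 0.130 CPM (blue 2) to 0.218 CPM (white 3), from counting error alone. In the red libraries 1016 of the 1390 had at least 10 counts in each library and 16 had none, and of the 364, 9 had at least 10 counts in each red library and 211 had none. The 1390 were picked for counts in every blue library and the 364 for none in blue. Red counts of other clusters that meet the same condition in blue are not given here. These numbers therefore only describe the 2 lists.

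Many abundant clusters stayed within 2-fold of their white level on the TMM scale. Of 1394 clusters with a mean of at least 100 CPM, 583 had a 95% interval of the difference that lay wholly within 2-fold in either direction, and 117 of these passed the test with a small change. They included clusters of up to 9619 CPM in white. Another 264 neither passed the test nor had an interval that narrow, so that no statement can be made on them. The most abundant cluster in blue was of the steady kind, at 7302, 11542 and 10013 CPM in white 1 to 3 and at 6789, 6673 and 7593 CPM in blue 1 to 3 (log2 difference -0.45, SE 0.19, edgeR adjusted p = 0.14).

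Among clusters of at least 10 CPM, the share lower in blue was smaller the longer the class, from 34.0% under 300 bases to 8.37% at 4000 bases or more. The share higher in blue had no such order and was largest, at 13.7%, in the shortest class. The difference between classes was not tested. The effective length is the length over which the authors' FPKM divides the counts. It could be derived for 96.9% of the tested clusters. Among clusters with a mean of at least 10 CPM, 41 of 300 under 300 bases rose and 102 fell, with a median log2 difference of -0.69. From 300 to 1000 bases 121 of 1864 rose and 621 fell (median -0.59). From 1000 to 2000 bases 296 of 3773 rose and 1087 fell (median -0.33), and from 2000 to 4000 bases 367 of 3350 rose and 552 fell (median 0.077). At 4000 bases or more 173 of 1374 rose and 115 fell (median 0.58). At this level the medians were higher from each class to the next longer one, and the longest and the shortest class were 1.27 apart on the log2 scale. That distance was 1.83 without white 1 and 0.81 without white 2, and the median of the longest class was 0.94 and 0.31. Over all tested clusters, rare ones included, the medians had no such order: they were 0.31, -0.0071, -0.036, 0.35 and 0.72 from the shortest to the longest class, and under 300 bases more clusters rose (521) than fell (430). With library totals as the scaling the medians of clusters of at least 10 CPM were -0.30 in the shortest and 0.93 in the longest class, that of the class from 1000 to 2000 bases became 0.054, and without white 2 that of the class from 2000 to 4000 bases became -0.018.

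**Figure D4:**
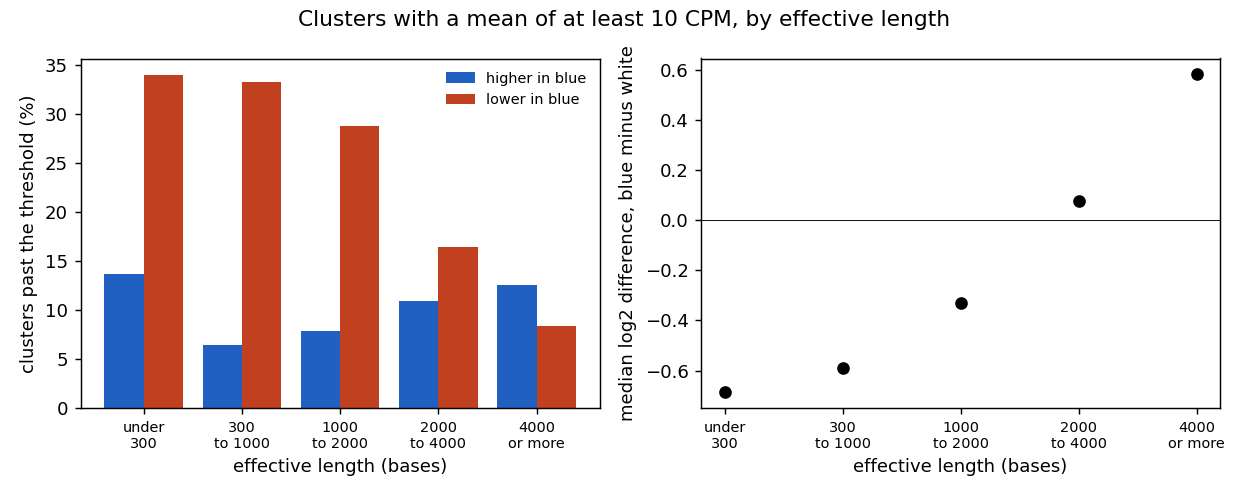
Clusters with a mean of at least 10 CPM by effective length in bases. Left, the share of each class that was higher (blue bars) or lower (red bars) in blue light at an adjusted p under 0.05; right, the median log2 difference of each class, from -0.69 under 300 bases to 0.58 at 4000 bases or more.

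The white libraries differed among themselves in the same respect. For each library the median log2 level of the longest class was set against that of the shortest, both relative to the mean of the 6 libraries. The difference was 0.33 in white 1, -1.72 in white 2 and -0.54 in white 3, and 0.86, 0.57 and 0.64 in blue 1 to 3. White 1 was thus nearer to the blue libraries than to white 2. Clusters under 300 bases took 4.29%, 7.59% and 6.57% of the counts in white 1 to 3 and 2.46% to 2.95% in blue, and clusters of 2000 to 4000 bases took 26.5%, 18.7% and 21.9% in white 1 to 3 and 27.6% to 28.5% in blue. For these shares the groups did not overlap (exact permutation p = 0.1 for either class, adjusted 0.13). The share of clusters of 4000 bases or more overlapped between the groups (exact permutation p = 0.4). The balance of long and short clusters differed between the groups in some length classes and also within white, and its part in the changes of single clusters was not tested.

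White libraries were more variable than blue ones in each of the 3 classes of level in which the spread was measured, from 1 CPM upward. At 100 CPM or more the median SD of log2 levels was 0.30 in white and 0.084 in blue, from 10 to 100 CPM it was 0.35 and 0.11, and from 1 to 10 CPM it was 0.60 and 0.26. White had the larger SD in 82.6%, 82.2% and 75.8% of these clusters. A library was counted as apart in a cluster when it alone was more than 4-fold from the median of its group. From 10 to 100 CPM this held for white 1 in 227 of 9267 clusters, for white 2 in 564 and for white 3 in 25, and for blue 1 to 3 in 32, 31 and 74. Across the 10661 clusters with at least 10 CPM, which are not independent replicates, log2 levels of white 1 correlated with the blue libraries at 0.592 to 0.625, those of white 2 at 0.341 to 0.397 and those of white 3 at 0.476 to 0.522. White 1 and white 2 correlated at 0.719, white 1 and white 3 at 0.883, and white 2 and white 3 at 0.902. Between blue libraries the correlation was 0.947 to 0.969. The sources used here do not say whether white and blue samples were grown, extracted and sequenced together, and such a batch and the light cannot be told apart.

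**Figure D5:**
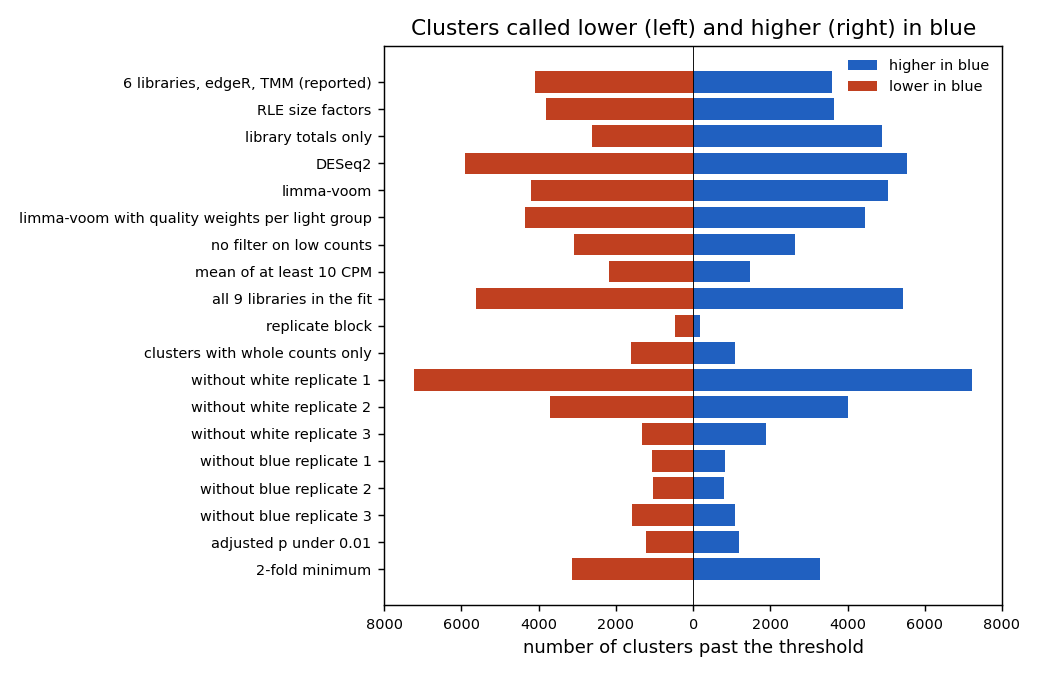
Number of clusters called lower (left, red) and higher (right, blue) in blue light under the reported analysis (top bar, 4087 and 3610) and each alternative. The bars are longest without white replicate 1 (7234 lower and 7213 higher) and shortest with the replicate number as a block (458 and 185).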

How the data were processed

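Per the labels, total RNA was extracted with Trizol and 1.5 µg per sample went into NEBNext Ultra libraries for Illumina. Each deposited table gives an estimated count and an FPKM value per cluster; the estimated counts deposited by the authors are not scaled and 21.6% to 31.9% of them per library are not whole. The FPKM values deposited by the authors were used for effective lengths (median over libraries with at least 20 counts) and in an alternative. The submitters' processing notes name DESeq 1.10.1; aligner, assembly and counting tool are not given in the sources used here. None of the identifiers matched the 16683 genes of the Dunsal1 reference table (0 matches), so no gene list could be tested and no sequence is shown.

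Estimated counts were rounded and filtered with filterByExpr of edgeR 4.0.16 (R 4.3.3). It kept clusters with the CPM of about 10 counts in at least 3 of the 6 libraries and at least 15 counts in total. A cluster could thus enter through 1 light alone. Counts were scaled by TMM. They were fitted with glmQLFit (robust) on the 3 blue and 3 white libraries, with the light as the only term. The p-values were Benjamini-Hochberg adjusted over 32789 clusters (threshold 0.05). CPM is TMM-scaled. The 95% intervals of fold changes come from the edgeR fit and include the spread between libraries; the interval of the pooled ratio and the floors (3 counts) cover counting error only, as no molecular identifiers are named for these reads. No libraries of a group agreed within sampling noise (chi-square per degree of freedom 10.8 or more). The contrast, lists and tests were chosen with earlier results of these data known. The named clusters are the 2 risen with the highest mean in blue and the 2 fallen with the highest mean in white among those at least 2-fold changed, without overlap, and past the threshold with and without each library; other clusters described by rank, and the classes by length, were chosen after seeing the data. Alternatives used DESeq2 1.42.0 and limma 3.58.1.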

Additional observations from a re-analysis of the deposited data

How the results depend on the processing

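The 7697 changed clusters (3610 higher, 4087 lower) became 3653 (1473 and 2180) at a mean of at least 10 CPM, 2705 (1092 and 1613) among clusters with whole counts, as fewer clusters were tested (10653 and 8025), and 2400 (1178 and 1222) at an adjusted p under 0.01. Leaving out 1 library gave 1836 to 14447 changed, 804 to 7213 higher and 1032 to 7234 lower. The number higher was 5540 with DESeq2 and 5424 with all 9 libraries in the fit, and the number lower was 2607 with library totals. RLE factors, limma-voom with or without quality weights per light group, no filter and a 2-fold minimum stayed within 1.5 times of each count. Limma-voom called 5042 higher and 4210 lower. With the replicate number as a block 643 clusters changed (185 higher and 458 lower), and the blocked fit has fewer degrees of freedom. Deviations of same-numbered libraries correlated at 0.16, 0.077 and -0.034, so the numbers were not taken to pair the samples. The difference between blue and white in the number of clusters that reach 50% of the counts was 253, 216 to 306 with 1 library left out, and 388 with FPKM; the difference in detected clusters, 15940, kept its direction in every alternative run.

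The 4 named clusters were chosen for passing with each library left out; in the other 9 alternatives that refitted blue against white they passed too, with a highest edgeR adjusted p of 0.048 (Cluster-15686.47928, replicate block). Against red, Cluster-15686.49082 passed in a fit of blue and red libraries alone (log2 difference 1.63), for which no share over all clusters is given here. Median log2 differences turned sign with library totals in the classes of 10 to 100 CPM (0.25), 100 to 1000 CPM (0.073), 1000 CPM or more (0.21) and 1000 to 2000 bases (0.054), at a mean of at least 10 CPM in that of 10 to 100 CPM (0.024), among whole counts in that of 1000 CPM or more (0.094), and without white 2 in that of 2000 to 4000 bases (-0.018, the lowest with 1 library left out; the highest was 0.14). A minimum of 30 counts in place of 10 left 726 clusters with counts in blue alone and 171 in white alone. A 90% interval gave 655 steady clusters in place of 583. Beyond the reasons named, the cause was not tested. At this depth, clusters without counts in a group allow only a bound on the fold.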
